A study of Mus musculus with 2 samples.

Results

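The isocitrate dehydrogenases Idh1, Idh2, Idh3a, Idh3b and Idh3g were followed at the level of single splice forms in mouse heart. All transcript models that carry 1 of these 5 gene names were taken, which gave 5 genes of the 15031 annotated genes with reads, with 92 models in replicate 1 and 99 in replicate 2. The genes were selected on their levels and splice forms in these same libraries, so both are given as a description. The 2 libraries form 1 group: whole heart of female B6CASTF1/J mice (F1 animals of a C57BL/6 and a CAST cross) aged 18 to 20 months, with no treatment named in the labels, 2 µg of RNA per library, sequenced as long reads that can run through a whole transcript. The labels give separate tissue samples but 1 donor entry, so the number of animals is not known, and every spread between libraries may be technical in part. No contrast between conditions exists here, and the tests below compare the 2 libraries with each other against counting error.

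Isocitrate dehydrogenases remove a carboxyl group from isocitrate and leave 2-oxoglutarate. The NAD-dependent enzyme of the citric acid cycle is a mitochondrial assembly of a catalytic alpha subunit (Idh3a) with the beta (Idh3b) and gamma (Idh3g) subunits, of which gamma serves regulation by allosteric effectors. Idh2 in mitochondria and Idh1 in the cytosol and peroxisomes are separate homodimeric enzymes that reduce NADP, and Idh2 is known to be abundant in heart muscle. Alternative 3′ ends of the beta subunit mRNA, which give the protein different C-termini, are known in mammals.

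The sequences below show the 2 places where most reads of a gene departed from the annotation, both taken from GENCODE M21 transcripts on mm10. For Idh3b (chromosome 2, minus strand) the end of the exon before the last intron, chr2:130280263-130280277, is in lower case and the exon that follows it is in capitals. The distal last exon, used by most reads, is shown over its first 30 bases (chr2:130279408-130279437), and the last exon annotated for the full-length coding transcript Idh3b-201 is shown up to its stop codon (chr2:130279640-130279726).
Idh3b distal last exon: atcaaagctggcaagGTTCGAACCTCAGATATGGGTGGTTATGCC
Idh3b annotated last exon: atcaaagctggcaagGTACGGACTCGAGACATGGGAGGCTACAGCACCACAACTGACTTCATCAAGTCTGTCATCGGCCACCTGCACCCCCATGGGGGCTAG
The starts of the exons resemble each other, with 19 of the first 30 bases identical. The intron before the distal exon ends in the following bases (chr2:130279438-130279449).
Idh3b distal acceptor: tttttcccacag

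For Idh3g (chromosome X, minus strand) the second exon, chrX:73782675-73782716, and the first 15 bases of the exon at chrX:73782089-73782103 are in lower case. In capitals stand the bases that differ between the forms: the annotated 12-base exon of Idh3g-201 (chrX:73782298-73782309), or the 4 bases (chrX:73782671-73782674) that the deposited leading model adds to the second exon.
Idh3g-201: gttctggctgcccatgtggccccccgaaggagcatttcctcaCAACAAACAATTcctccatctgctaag
Idh3g leading form: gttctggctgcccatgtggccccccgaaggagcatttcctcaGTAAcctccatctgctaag
Idh3g skipping form: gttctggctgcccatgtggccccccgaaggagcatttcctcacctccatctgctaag
The 4 added bases are the first 4 of the annotated intron, which opens as shown next (chrX:73782663-73782674), and the 12-base exon lies between intron ends of the usual form (chrX:73782286-73782321, the exon in capitals).
Idh3g intron start: GTAAGTACCTGC
Idh3g short exon: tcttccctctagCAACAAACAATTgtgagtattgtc

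The NADP enzyme of mitochondria was the most abundant member. Idh2 had 1352 reads in replicate 1 and 1355 in replicate 2, or 2176 and 2011 CPM (reads per 1000000 mouse reads, scaled by trimmed means of M-values, TMM), with a mean of 2093 ± 116 CPM (SD, n = 2 libraries for all values after ±). Its cytosolic counterpart Idh1 had 38 and 53 reads, or 69.9 ± 12.4 CPM. Idh2 had 35.6 times the CPM of Idh1 in replicate 1 and 25.6 times in replicate 2, so both libraries put the RNA of the mitochondrial NADP enzyme far above that of the cytosolic one.

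The 3 subunits of the NAD enzyme lay between these. Idh3a, the catalytic subunit, had 461 and 530 reads, or 742 and 787 CPM (764 ± 31.7 CPM). Idh3b had 469 and 550 reads, or 755 and 816 CPM (786 ± 43.6 CPM), and Idh3g had 256 and 295 reads, or 412 and 438 CPM (425 ± 18.3 CPM). In CPM the order was Idh2, Idh3b, Idh3a, Idh3g and Idh1, and the neighbours Idh3b and Idh3a did not differ beyond their spread. The proportions of the subunits were close in both libraries: the ratio of Idh3a to Idh3b was 0.983 and 0.964, that of Idh3a to Idh3g 1.80 and 1.80, and that of Idh3b to Idh3g 1.83 and 1.86. Summed over the 3 genes the subunit reads reached 1975 ± 93.7 CPM, and the 1908 and 2041 CPM in the 2 libraries overlapped the 2176 and 2011 CPM of Idh2. This sum counts the RNA of several subunits of 1 assembly and is not a level of the enzyme. Gene by gene, Idh2 had 2.93 and 2.56 times the CPM of Idh3a in replicates 1 and 2.

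Per kilobase of each gene's leading form the order was Idh2 (1200 CPM per kilobase), Idh3b (647), Idh3g (321), Idh3a (296) and Idh1 (30.4). The length of Idh3a was that of its annotated transcript (2580 bases), and those of Idh3b and Idh3g were of new models (1214 and 1323 bases). The most frequent NNC form of Idh3a had 1684 bases, so the order of Idh3g and Idh3a depends on the length taken. Most reads reached the first intron of these genes, so division by length favours genes with short forms. In CPM, Idh3a had 1.80 times the level of Idh3g in both libraries. Per kilobase of the leading annotated form Idh3g (495) came before Idh3b (486). That place rests on the short Idh3g-202 of 859 bases, the leading annotated Idh3g form with reads. It is annotated as a retained-intron transcript and had 2 and 2 reads. The place of Idh2 at the top and of Idh1 at the bottom was shared by all 3 scales.

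**Figure D1:**
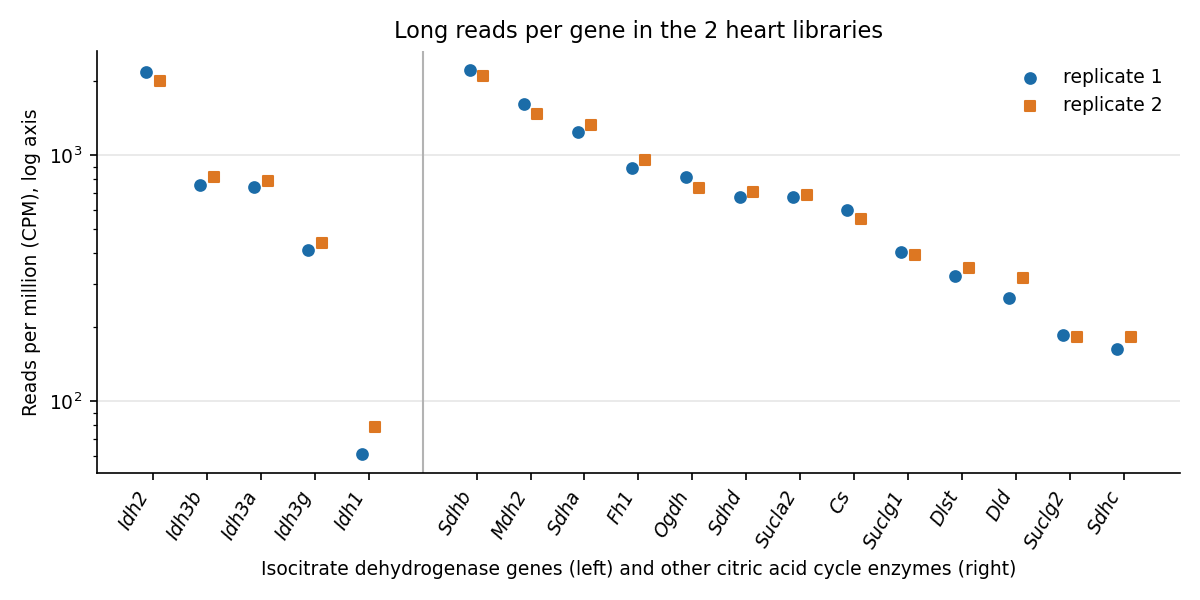
Level of each isocitrate dehydrogenase gene (left) and of 13 other citric acid cycle enzymes (right) in CPM on a log axis, circles for replicate 1 and squares for replicate 2. Idh2 reached 2176 and 2011 CPM, among the highest of the cycle, and Idh1 61.1 and 78.7 CPM, below all others shown.

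None of the 5 genes was called different between the libraries. The test was a two-sided exact binomial test with Benjamini-Hochberg adjustment over 7545 genes, of which it called 156, or 2.07%. The ratio of replicate 1 over replicate 2 was 1.08 [1.00 to 1.17, exact 95% interval] for Idh2, with p = 0.0415 and an adjusted p = 0.470 in the exact binomial test. The ratio of replicate 2 over replicate 1 was 1.29 [0.832 to 2.01] for Idh1, 1.06 [0.934 to 1.20] for Idh3a, 1.08 [0.955 to 1.23] for Idh3b and 1.06 [0.896 to 1.26] for Idh3g, with adjusted p from 0.837 to 0.963 in the same exact test. On the log2 scale, replicate 1 over replicate 2, the median was -0.09 for the 5 genes and -0.00053 for all tested genes.

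The tissue markers of the 2 libraries were not alike. The 6 cardiac muscle markers summed to 24350 and 21848 CPM, with Myh6 and Myl2 called higher in replicate 1. All 5 erythroid markers were higher in replicate 1 (summed 30391 and 11784 CPM), and all 4 atrial markers were higher in replicate 2 (1806 and 4318 CPM). Adipocyte markers summed to 94.9 and 1027 CPM with 4 of 6 called higher in replicate 2. Plin1, not called, had 0 reads in replicate 1 and 10 in replicate 2, and Lep was at 0 in both. Airway markers were at 0 in replicate 1 for all 5 genes and summed to 623 CPM in replicate 2, with Sftpc at 0. The fibroblast, endothelium and macrophage lists summed to 2451 and 2853, 751 and 1079, and 243 and 355 CPM, each with 1 of its 5 genes called higher in replicate 2 (Col3a1, Fabp4 and Lyz2). Fabp4 alone held 574 and 919 CPM of the endothelium sums. Pecam1 and Cdh5 were slightly higher in replicate 2, and Egfl7 and Kdr were higher in replicate 1, with none of these called. The part of these differences in the values of the isocitrate dehydrogenases was not tested, and fewer cells of a type and less RNA per cell cannot be told apart in whole tissue.

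The deposited models sort each read by how its splicing compares with the annotation. Known models match an annotated transcript. ISM models (incomplete splice match) are a part of a longer transcript, which in Idh3b could itself be a new model. NIC models join annotated splice sites in a combination that the annotation lacks. NNC models use at least 1 splice site that the annotation lacks, and genomic-class models lie over a gene but do not keep to its splice sites. Known models held 63.2% and 61.4% of the reads of the 5 genes, against 69.9% and 68.6% over all annotated genes. NIC models held 14.4% and 14.2%, against 2.74% and 2.76% over all genes, and NNC models 10.4% and 10.9%, against 2.30% and 2.23%. ISM models were a smaller part of the reads of the 5 genes, at 5.86% and 8.30% against 15.6% and 18.1%.

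Most of the NIC and NNC reads were of Idh3b and Idh3g. Of the reads in known, NIC and NNC models, the 2 new classes together held 98.2% and 94.3% in Idh3b (377 of 384 and 400 of 424 reads) and 99.1% and 98.8% in Idh3g (222 of 224 and 256 of 259 reads). In Idh3a they held 4.78% and 4.85% (21 of 439 and 24 of 495 reads), and in Idh2 1.77% and 1.43% (21 of 1186 and 17 of 1185 reads). Idh1 had none of 35 such reads in replicate 1, which allows a share of up to 8.57% (3 reads), and 2 of 46 in replicate 2. Among 3920 genes with at least 10 non-genomic reads in each library and more than 1 form, a NIC form led in 3.62% and an NNC form in 1.48%, and a new form held over 70% of the gene's non-genomic reads, both libraries pooled, in 33 genes (0.842%), Idh3b and Idh3g among them.

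**Figure D2:**
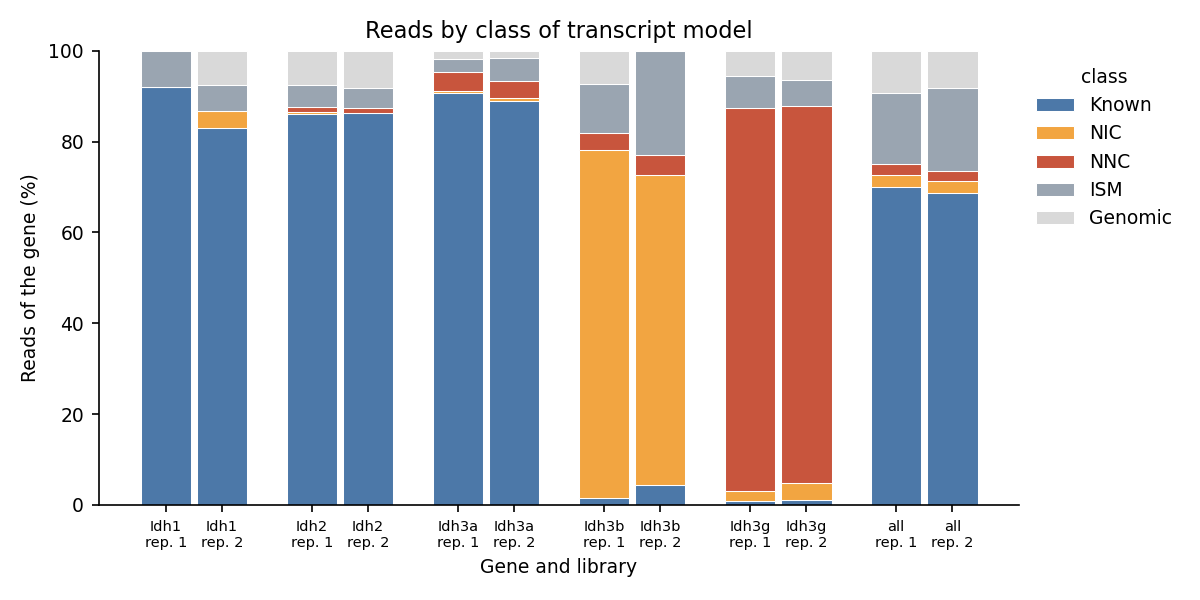
Share of each gene's reads by class of transcript model in each library, with all annotated genes at the right. NIC reads fill 76.5% and 68.4% of the Idh3b bars and NNC reads 84.4% and 83.1% of the Idh3g bars, while known reads fill 83.0% to 92.1% of the Idh1, Idh2 and Idh3a bars.

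For the new-splice share of a gene, Fisher's exact test between the libraries called 0% of 3820 genes. At an unadjusted p under 0.05 there were 56 such genes, 1.47%, and Idh3b was 1 of them at p = 0.00529, with an adjusted p = 1 in Fisher's exact test. With ISM reads added to the known reads, Idh3b was called, at a share 13.9 points higher in replicate 1 and an adjusted p = 0.000319 in Fisher's exact test. That base of 435 and 550 reads holds 63 single-exon reads of replicate 2 but not the 34 of replicate 1, which were classed as genomic. It also counts as not new some ISM reads that hold the unannotated junction to the distal last exon. That junction had 411 and 433 reads, more than the 377 and 400 reads of all NIC and NNC models of Idh3b. The 4 other genes had p from 0.503 to 1 in Fisher's exact test.

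In Idh3b (chromosome 2, 130279309 to 130284547, mm10, minus strand) the leading form was a NIC model of 12 exons and 1214 bases with 355 and 371 reads. It runs from the exon before the last directly to the distal last exon of 129 bases printed above. This acceptor lies 289 bases downstream of the acceptor of the 418-base last exon of Idh3b-201. Both splice sites are annotated, the distal one in Idh3b-204, a short transcript annotated as a target of nonsense-mediated decay, but GENCODE M21 has no transcript that joins them. Idh3b-201 itself, the 1 Idh3b transcript annotated as protein-coding, had 7 reads in replicate 1 and 24 in replicate 2.

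The reads of the same junction in all models give the choice of last exon more fully. The junction to the distal exon had 411 and 433 reads, and the junctions to the annotated acceptor 18 and 38 reads. The annotated last exon thus took 4.20% [2.51 to 6.55] and 8.07% [5.77 to 10.9] of spliced reads in replicates 1 and 2. Of the reads leaving the exon before the last, 95.8% and 91.7% went to the distal exon (411 of 429 and 433 of 472). The adjusted p of this site was 1 by Fisher's exact test over 12481 splice sites, and its unadjusted p was 0.0134.

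The distal join keeps the reading frame. Translation from the start codon of Idh3b-201 passes 1068 bases, a whole number of codons, before the join in the leading form and stops at a TAA codon after 380 codons, against 384 codons and a TAG in Idh3b-201. The coding part behind the join is 75 bases long with the stop codon in the leading form and 87 bases in Idh3b-201, so the predicted proteins differ over their C-terminal ends only. In both forms the stop codon lies in the last exon.

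Rarer Idh3b forms varied the same 3′ end. An NNC form of 13 exons with an extra 143-base exon before the annotated last exon (chr2:130279962-130280104) had 7 and 8 reads. An 89-base intron inside the annotated last exon, which ends at the distal acceptor, had 5 and 7 reads in all models, and the annotated 118-base intron there, that of Idh3b-204, had 0 and 4. Elsewhere, a form without the third exon had 1 and 2 reads at its joining intron, and introns shifted by a few bases at the fifth or sixth intron had 1 and 3 reads or 3 and 1. Nop56 lies over Idh3b on the opposite strand, and loci antisense to Idh3b had 0 and 2 reads. Of 20 NIC or NNC forms 8 were found in both libraries, with 372 of 377 and 393 of 400 reads, and the other 12 had 1 read each.

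**Figure D3:**
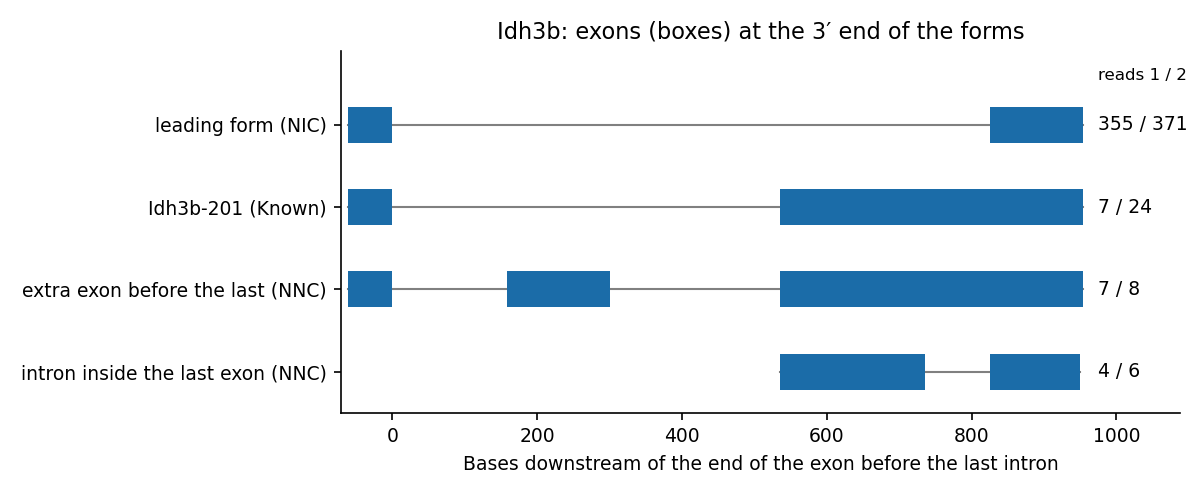
Exons (boxes) and introns (lines) at the 3′ end of the Idh3b forms of class Known, NIC or NNC with at least 5 reads, in bases downstream of the end of the exon before the last intron, with reads of replicates 1 and 2 at the right. The leading form joins the exon at 0 to the distal exon at 825 (355 and 371 reads), and Idh3b-201 joins it to the annotated exon at 536 (7 and 24 reads).

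Idh3b was the 1 member called in the test of leading form shares. Its leading form held 355 of 435 non-genomic reads in replicate 1 (81.6%) and 371 of 550 in replicate 2 (67.5%), with an adjusted p = 5.44e-05 by Fisher's exact test over 3920 genes, of which 72, or 1.84%, were called. A group of single-exon reads within the 418-base last exon moved with this result: 34 reads were classed as genomic in replicate 1, and so left out of the test, and 63 were classed as ISM in replicate 2 and counted. With all classes counted the shares were 75.7% and 67.5% with an adjusted p = 0.756, and without ISM models the adjusted p was 1 in Fisher's exact test, so the call rested on the class given to these reads. The 129-base distal exon lies within this 418-base exon, so a read without an intron may come from either last exon. If all single-exon reads were given to the annotated last exon, a count chosen after seeing the data, its share was 11.2% [8.50 to 14.5] and 18.9% [15.7 to 22.5]. How many of these reads belong to it is not known.

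In Idh3g (chromosome X, 73778963 to 73786897, mm10, minus strand) the leading form was an NNC model of 12 exons and 1323 bases with 216 and 244 reads. It lacks the 12-base exon of Idh3g-201 and has a second exon that is 4 bases longer than the annotated 42 bases, as printed above. The new intron had 221 and 255 reads, against 2 and 7 for the annotated intron that skips the 12-base exon without extra bases, a share of 99.1% and 97.3% (adjusted p = 1, Fisher's exact test). No model of either library held the 12-base exon, and Idh3g-201 had 0 reads.

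The predicted reading frames of these forms differ. Idh3g-201 has 393 codons before its stop and the skipping form 389, so that the 12 bases add a whole number of codons. In the leading model as drawn, the 4 extra bases shift the frame, and a TAA codon at bases 16 to 18 behind the annotated end of the second exon ends it after 46 codons, 931 bases before the last exon junction. The deposited models give genome positions and not read bases, so whether these reads carried the 12 bases of the short exon cannot be seen in them.

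Exons of this size were rarely seen in any gene, a count made after the data were seen. Of 41 annotated internal coding-gene exons of up to 12 bases (that of Idh3g included) whose neighbours were joined by at least 10 reads in each library, 1 was present in any read and 0 in over 50% of reads. Of 43 exons of 13 to 20 bases 8 were present in over 50% of reads, as were 147 of 208 exons of 21 to 30 bases and 2078 of 2381 exons of 31 to 60 bases. In 13 of the 41 loci most reads skipped the short exon with a splice site moved by 1 to 10 bases, as in Idh3g, and in 22 with the annotated sites.

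**Figure D4:**
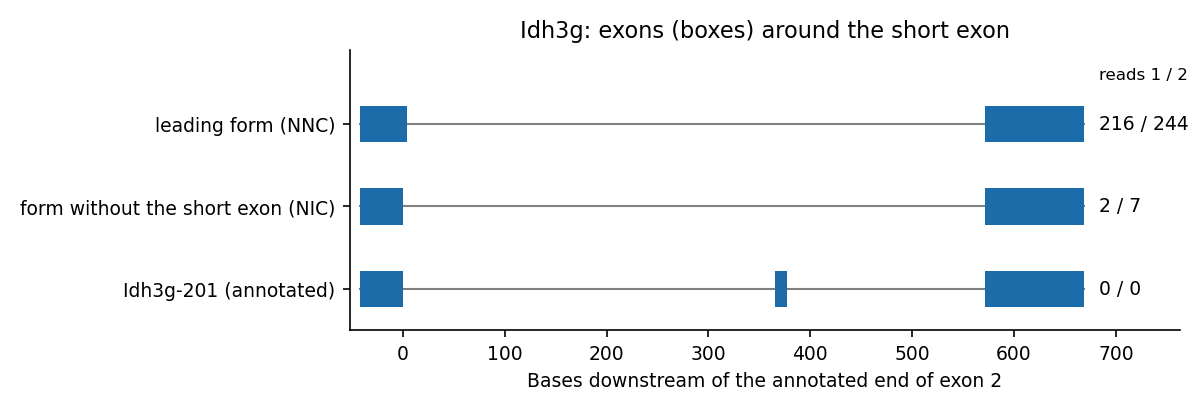
Exons (boxes) around the short exon of Idh3g in bases downstream of the annotated end of the second exon, with reads of replicates 1 and 2 at the right. The leading form extends the second exon to 4 (216 and 244 reads), the skipping form ends it at 0 (2 and 7 reads), and the annotated Idh3g-201 with its exon from 365 to 377 had 0 reads.

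The remaining Idh3g forms were few. A NIC form with another annotated first exon had 2 and 2 reads, as did the short annotated Idh3g-202 of 6 exons. Idh3g-202 and Idh3g-209 (0 and 1 reads) are annotated as retained-intron transcripts, and together they held all known reads of Idh3g. Of 8 NIC or NNC forms 3 were found in both libraries, with 220 of 222 and 253 of 256 reads, and 5 had 1 read each.

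Idh3a (chromosome 9, 54586334 to 54604661, mm10, plus strand) was read almost entirely with the introns of its annotated transcript Idh3a-205, of 11 exons and 384 codons, with 418 and 469 reads. The 2580 bases of this form are those of the annotated transcript. Its most frequent NNC form, with 11 and 9 reads, ended earlier, at 54603936. Its leading share was 92.3% and 90.0% of non-genomic reads (adjusted p = 1, Fisher's exact test). The most frequent variant was an inner donor in the second exon, used by 11 and 9 reads in an NNC form, which leaves out the last 24 bases of that exon. The exon is shown because these bases begin with the GT of a donor site (chr9:54589858-54589920, plus strand, the bases left out in capitals).
Idh3a second exon: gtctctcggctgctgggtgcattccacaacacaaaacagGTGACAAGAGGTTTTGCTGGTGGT
Of the reads that reach the third exon, 96.4% in both libraries came from the annotated donor (429 of 445 and 481 of 499, adjusted p = 1, Fisher's exact test).

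Other Idh3a variants were at a few reads. Donors moved by 2 bases into or 4 bases past the second exon had 4 and 3 reads and 1 and 2 reads. The intron from the first exon to the third had 0 and 3 reads. A donor 763 bases past the end of the first exon, joined to the second exon, had 1 and 4, and a last exon 2 bases shorter had 1 and 4. Each of these was at or under 4 reads per library, and no order between the libraries is read from them. Of 14 NIC or NNC forms 3 were found in both libraries, and 8 had 1 read.

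Idh2 (chromosome 7, 80094846 to 80115392, mm10, minus strand) was read as Idh2-201, of 11 exons, 1745 bases and 452 codons, in 1148 and 1158 reads, 91.8% and 93.1% of non-genomic reads (adjusted p = 1, Fisher's exact test). The short transcripts Idh2-206, of 3 exons, and Idh2-205, of 5 exons, had 15 and 6 reads and 2 and 4 reads. Both are annotated as retained-intron transcripts. Genomic-class reads in single-exon models within the last exon numbered 100 in replicate 1 and 111 in replicate 2. At every Idh2 splice site with more than 1 partner the leading intron held at least 99.5% of reads in both libraries. Its 2 new forms with the most reads had 3 and 3 reads each, 1 with an exon 2 bases shorter and 1 with an exon 2 bases longer, and 16 of its 23 NIC or NNC forms had 1 read. Gm45203 overlaps Idh2 on the same strand, and reads in the overlap may belong to either.

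Idh1 (chromosome 1, 65158616 to 65186500, mm10, minus strand) was read as Idh1-201, of 9 exons, 2302 bases and 414 codons, in 35 and 44 reads. Of reads that splice into the second exon, 36 of 36 and 45 of 47 came from the first exon of Idh1-201, and the other 2 reads of replicate 2 came from 2 different exons further upstream, at 1 read each.

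Over the 5 genes 39 splice sites were tested for a different choice of partner between the libraries, and none was called by Fisher's exact test. Over all genes 0% of 12481 sites were called, and 173 sites (1.39%) had an unadjusted p under 0.05. The Idh3b donor given above was the 1 member site among these 173.

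Most reads reached the first intron of these genes. Reads at the first intron were 97.3% and 93.8% of those at the last intron in Idh1, 93.7% and 95.3% in Idh2, 97.3% and 96.1% in Idh3a, and 91.3% and 93.1% in Idh3g. In Idh3b, whose reads divide at the last intron, they were 89.9% and 89.6% of those at intron 10, the best covered one. The median of 225 genes with 8 to 11 introns and at least 50 reads at the last intron was 93.1% in both libraries. Among ISM forms of at least 2 exons and 5 reads, most held only the 3′ introns of a longer transcript, annotated or new. Such ISM forms numbered 8 in Idh2 (64 and 59 reads), 7 in Idh3b (46 and 50), 3 in Idh3a (8 and 9) and 3 in Idh3g (11 and 13). Of these 21 forms 19 were labelled as suffix forms, which lack 5′ introns. Some of the 19 also held intron bases. The Idh2 form of 7 exons had 1316 bases, and that of 8 exons with the same 5′ end had 1237. An Idh3b form of 10 exons had 1462 bases, more than the 1214 of the leading form.

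**Figure D5:**
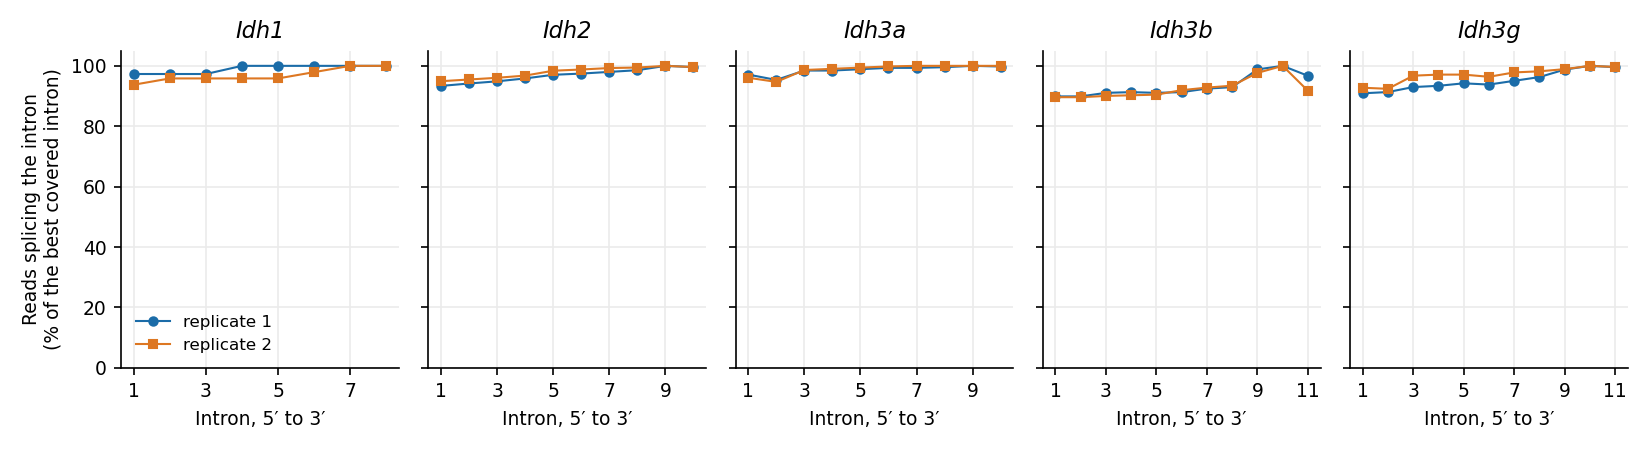
Reads that splice each intron of the leading form, from 5′ to 3′, as a percentage of the best covered intron of the gene, for replicate 1 (circles) and replicate 2 (squares). The lowest point is 89.6%, and the drop at the last intron of Idh3b is where reads divide between the distal and the annotated last exon.

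Of 13 other enzymes of the citric acid cycle none was called by the exact binomial test, against 2.07% of all genes tested, and their median on the same log2 scale was -0.02. Sdhb, the iron-sulfur subunit of succinate dehydrogenase, was the most abundant at 2159 ± 89.4 CPM, within the spread of Idh2. Mdh2, the mitochondrial malate dehydrogenase, stood at 1545 ± 102 CPM, Sdha, the flavoprotein subunit of succinate dehydrogenase, at 1290 ± 60.7 CPM, and Fh1, fumarate hydratase, at 924 ± 45.6 CPM. In CPM the sum of Idh3a, Idh3b and Idh3g (1908 and 2041 CPM) lay above Mdh2 (1617 and 1472 CPM) in both libraries. Each of these subunit genes alone lay below Mdh2.

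Of 14 enzymes and carriers that handle citrate, oxoglutarate or NADPH around these steps, 12 were tested. Of these 2 were called, both higher in replicate 2, against 2.07% of all genes tested. Slc25a1, the mitochondrial citrate carrier, had 2 reads in replicate 1 and 32 in replicate 2 (adjusted p = 1.46e-05, exact binomial test). Acly, which splits citrate in the cytosol, had 12 and 54 reads, or 19.3 and 80.2 CPM, with an adjusted p = 7.53e-05 in the exact binomial test. The adipocyte markers moved the same way, at 94.9 and 1027 CPM, and their part in these 2 genes was not tested. Mdh1, the cytosolic malate dehydrogenase, was the most abundant of this list at 1975 ± 13.3 CPM.

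The protein-coding genes nearest to each member in log2 CPM over the 2 libraries, out of 7165 compared, were Des and Atp5h for Idh2, Uqcrc2 and mt-Nd1 for Idh3a, Cox8a and Uqcrc2 for Idh3b, Ndufa9 and Ftl1-ps1 for Idh3g, and Mrpl22 and Rtl8a for Idh1. With 2 libraries this likeness is mainly one of level. Ftl1-ps1 is a near copy of Ftl1, and its reads may be shared with it. Mrpl22 had the same 38 and 53 reads as Idh1, and Des, which encodes the intermediate filament protein desmin, had 1375 and 1374 reads against 1352 and 1355 of Idh2.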

How the data were processed

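The authors deposited, for each library, raw read counts of every transcript model, per the file headers, and the exons of each model on mm10 with GENCODE M21. The models name TALON as their source, and the aligner with its version or filters was not given in the sources used here. Models at 0 reads are not listed. Members and lists were chosen with earlier results of these data known. Named forms were those with at least 5 reads, NIC or NNC forms in both libraries or with at least 3 reads, and introns with at least 3 reads at sites with more than 1 partner. Also named were the 5 most abundant and all called pathway genes and the 2 nearest genes per member, except for 1 listed gene that is not reported here.

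Models were matched between libraries by their introns, and reads summed per gene, form and splice site. Mouse reads numbered 630211 in replicate 1 and 664319 in replicate 2. They were scaled with TMM factors (0.986 and 1.014) from edgeR 4.0.16 in R 4.3.3, so 1 read was 1.61 or 1.48 CPM. Genes with at least 10 reads over both libraries, and shares with at least 10 reads in each, were tested. Gene reads were tested by an exact two-sided binomial test and shares by Fisher's exact test (scipy 1.17.1). Both were adjusted over all features by Benjamini-Hochberg, called at 0.05 and tested on simulated data. Intervals are exact 95% intervals and, like limits on 0 reads, cover counting error only. Reading frames and sequences came from the M21 transcripts, which hold the C57BL/6J reference and not the CAST alleles. Alternatives changed the library sizes (DESeq2 1.42.0 size factors included), read classes and read minimums, and left out each library. Antisense reads are counted as separate loci in the deposited files.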

Additional observations from a re-analysis of the deposited data

How the results depend on the processing

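Each of the 5 genes kept its direction and stayed uncalled under every change of library sizes, classes and minimums in the test of gene reads, except that Idh3g had too few reads of known transcripts to be tested. The log2 ratio of Idh3b was -1.61 with reads of known transcripts only (7 and 24 reads) and -0.11 as reported. Counts of calls over all genes moved with the read classes, as did the number tested. With reads of known transcripts only, 102 of 5399 genes were called, and without the genomic class 216 of 6712, against 156 of 7545 as reported. The summed level of the 5 genes with known transcripts only was 3913 CPM, since Idh3b kept 35.7 CPM and Idh3g 5.83 CPM. Without the genomic class the sum was 4266 CPM and the share of known reads 66.0% (4138 CPM and 62.3% as reported). Leading form shares gave 5 called genes of 4523 with all classes and 0 of 3300 without ISM models, against 72 of 3920 as reported. Splice-site choice gave 9 called sites of 7108 without NNC models. New-splice shares gave 3 called genes of 4223 against known and ISM reads together, and 4 of 3564 with NNC models alone. Idh3b was among the 3 (adjusted p = 0.000319, Fisher's exact test). There the single-exon reads were counted in replicate 2 alone, and some ISM reads of the new Idh3b junction were counted as not new. From 1 library at a time the summed level ranged from 4131 to 4145 CPM and the known share from 61.4% to 63.2%. No paired analysis was possible because the libraries form 1 group. Depth limits Idh1 most, with 38 and 53 reads.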
